A study of Mus musculus with 30 samples.

Results

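The voltage-gated calcium and sodium channel genes are 36 of the 17477 genes in the count table of the hippocampus of 30 mice, 25 of them for calcium channels and 11 for sodium channels. They were taken by symbol, as every gene named Cacna1, Cacna2d, Cacnb or Cacng with its letter or digit, or Scn with a number and a or b. Of 40 genes with such names in the reference, Cacng1, Scn4a, Scn10a and Scn11a were not analysed here. The filter on low counts was passed by 35 of the 36 in each sex. The one left out was Cacna1f, the pore of the calcium channel of photoreceptors, which had 159 counts over all mice. Scn2a is listed under its older symbol Scn2a1.

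A voltage-gated sodium channel (Nav) is 1 large alpha subunit that forms the pore and starts the action potential, flanked by small beta subunits that set its gating and its place in the membrane. A voltage-gated calcium channel (Cav) has an alpha1 pore subunit of the L type (Cav1), the P/Q, N and R types (Cav2) or the T type (Cav3). Cav1 and Cav2 pores also carry an alpha2delta subunit, which brings channels to the surface and to release sites, and a cytoplasmic beta subunit. The gamma genes are named after a subunit of the muscle channel, but most of those expressed in the brain encode TARPs, auxiliary proteins that traffic AMPA-type glutamate receptors and slow their closing. In hippocampal neurons these genes set firing, dendritic calcium entry, transmitter release and the strength of excitatory synapses.

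RNA came from adult C57 BL/6J mice, 8 females and 7 males under social isolation (SI), each kept alone in a cage from weaning, and 7 females and 8 males that were group-housed (GH) as controls. Each mouse gave 1 poly(A)-selected library of frozen hippocampus, so every value is a mean over all its cells, and fewer cells of a type cannot be told apart from less RNA per cell. The labels do not say which GH mice shared a cage. The question was what isolation changes in each sex, and SI was compared with GH within females and within males, followed by a test of the difference between the sexes.

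Total counts per mouse were between 18809307 and 100844898, and the channel genes took from 0.295% to 0.44% of them. Levels are given as CPM, counts scaled to a common library size with TMM factors set within the sex. The neuronal markers Snap25, Rbfox3, Tubb3 and Map2 summed to at least 2889 CPM in every mouse. Male SI animals 25, 33 and 39 stood apart, with scores of 61.4 to 99.5 on a first principal component that took up 59.1% of the male variance, while the other 12 males lay between -35.2 and 1.3. In these 3 mice levels also fell with transcript length against the GH mean, with slopes of -0.497 to -0.398 log2 units per doubling of length, against -0.132 to 0.126 in the other males. Of the 35 channel genes tested in males, 17 (48.6%) had their 3 lowest values in exactly these mice and 2 had their 3 highest. Over all genes tested in males the shares were 25.7% and 24.4%. Fitted differences of named channel genes and of gene lists in males are therefore given with and without them.

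The sodium channel alpha genes are close relatives, so part of their reads can fit more than 1 of them. Of all 31-base words in the Scn1a transcript, 9.78% also occurred in a coding transcript of another gene in GENCODE vM1, against 12.6% for Scn2a, 12.4% for Scn3a, 7.43% for Scn9a and 0.696% for Scn8a. Among the other channel genes the share was at most 5.71%, in Cacna1d, whose shared words were mostly those of Chdh. The counts of Scn1a, Scn2a, Scn3a and Scn9a therefore rest in part on how Salmon, the quantification program, divided shared reads.

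Levels can be compared between genes only per length, here as CPM per kb of the longest annotated transcript, averaged over all mice. High levels were found among the auxiliary subunits. The calcium channel beta gene Cacnb3 was at 97.5 CPM per kb, the TARP gene Cacng7 at 93.5, the Nav beta gene Scn2b at 52.9 and the TARP gene Cacng3 at 39.7. Among Nav pores Scn2a (23.7) and Scn8a (23.4) were level with each other within the spread between mice, ahead of Scn1a at 7.90 and Scn3a at 3.12. Among calcium channel pores Cacna1a of the P/Q type was highest of Cav2 at 16.7, Cacna1h highest of Cav3 at 12.6 and Cacna1c highest of Cav1 at 8.91. Cacna2d3 led the alpha2delta genes at 18.4, with a mean of 16.8 ± 1.51 (SD, n = 7) in GH females, above Cacna2d1 at 14.0 ± 1.61 (SD, n = 7).

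Genes known from muscle, retina or peripheral nerve were near the floor. Scn9a was at 0.187 CPM per kb, the skeletal muscle pore Cacna1s at 0.108 and Cacna1f at 0.0198. Scn7a (0.283) and the retinal alpha2delta gene Cacna2d4 (0.371) were also low. Cacng8, which encodes the TARP most typical of the hippocampus, and Cacng6 have annotated models of coding bases only, 663 and 783 long, so their levels of 217 and 1.201 CPM per kb are overstated. The coefficient of variation between GH mice was 7.61% for Scn2b in females and 9.84% in males, 18.6% and 28.1% for Cacna1e, and 40.1% and 25.5% for Cacna1s.

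**Figure D1:**
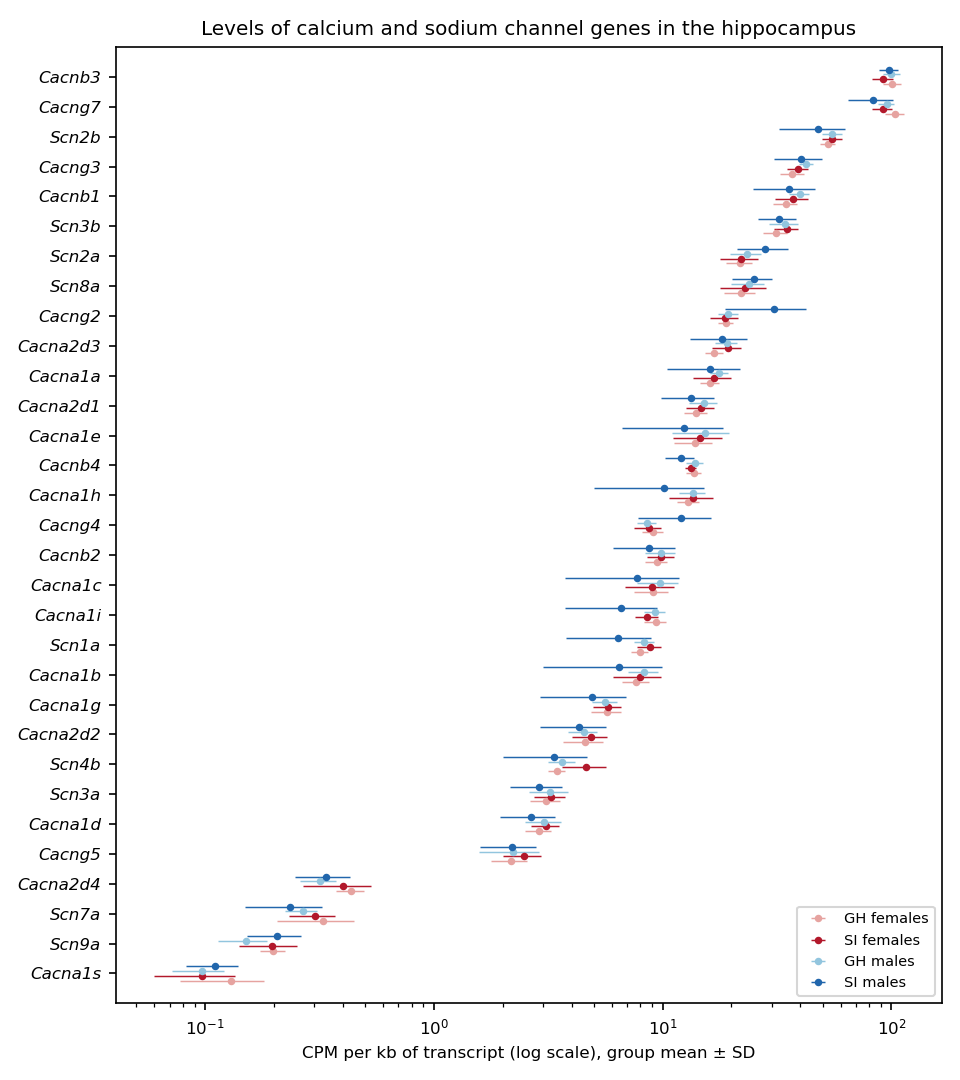
Mean CPM per kb of transcript on a log scale for 31 channel genes in GH females (n = 7), SI females (n = 8), GH males (n = 8) and SI males (n = 7), with bars of 1 SD. Cacnb3 leads those plotted at 97.5 CPM per kb over all mice and Cacna1s is lowest at 0.108, and bars are widest in SI males for most genes. Cacng6, Cacng8 and Cacna1f are among those not plotted.

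In females 1 of 35 channel genes, Scn1a, was called higher in SI and 0 were called lower, in edgeR's quasi-likelihood test, with p-values adjusted over 16026 genes after Benjamini and Hochberg and a threshold of 0.05. Over all genes tested in females 0.961% were called higher and 2.93% lower. At an unadjusted p under 0.05 there were 5 channel genes higher and 2 lower, together 20% of the 35, against 9.29% and 11% of all genes. By DESeq2 with the same surrogate variables 3 were called, where 7.87% of all genes were. Surrogate variables are covariates estimated from the data for variation beyond the housing term, and they can still overlap with housing. Log2FC is the log2 difference SI minus GH that the model fitted beside those covariates. It was above 0 for 23 of the 35 channel genes (65.7%), against 52.8% of all genes. The median Log2FC of the 35 was 0.04, with a range from -0.53 to 0.41, and the median of all genes was 0.01. With each female left out in turn the count called ran from 0 to 4, highest without SI animal 52, where 6.64% of all genes were called. The median of the channel genes was at or under 0.08 with any 1 female left out, and at -0.002 without SI animal 45.

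Scn1a (ENSMUSG00000064329, chr2:66108838-66278897, minus strand, NCBIM37) encodes Nav1.1, a pore of the axon initial segment that fast-spiking interneurons depend on. It had 56.0, 67.1 and 73.6 CPM (lowest, median and highest) in GH females and 57.6, 72.8 and 85.9 CPM in SI females. The groups overlapped, with 4 of 8 SI females above the highest GH female and 1 GH female below the lowest SI female. Means were 73.6 ± 9.05 CPM (SD, n = 8) in SI and 66.6 ± 5.67 (SD, n = 7) in GH. The fitted Log2FC was 0.15 (standard error 0.0359, edgeR's quasi-likelihood test, adjusted p = 0.0258). It was positive under each alternative that kept all females, between 0.13 and 0.16, but its adjusted p by the tools named ran from 0.00115 with DESeq2 to 0.510 without surrogate variables, and 6 of 12 of these alternatives kept the call. Without surrogate variables 0% of all genes were called in females. Left out singly, GH animals 46, 48 and 54 and SI animals 45, 63 and 68 each took the call away, with edgeR adjusted p of 0.0705, 0.0558, 0.0529, 0.0596, 0.0810 and 0.0696.

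The other alpha genes stayed closer to 0. Scn3a, the pore that is most abundant around birth, had a Log2FC of 0.08 in females, Scn8a 0.06 and Scn2a 0.01, none of them with an unadjusted p under 0.05. The low genes Scn7a and Scn9a were at -0.15 and -0.05 with standard errors of at least 0.127. Scn2a had 151, 193 and 230 CPM in GH females and 161, 180 and 265 in SI females. Its groups overlapped, with 2 SI females above the highest GH female and 1 GH female below the lowest SI female.

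Of the Nav beta genes, Scn4b and Scn3b were higher at an unadjusted p under 0.05 but neither was called. Scn4b (ENSMUSG00000046480, chr9:44946520-44962235, plus strand) encodes beta4, which can block the open pore and so give resurgent current. It had 14.97, 17.5 and 18.6 CPM in GH females and 16.5, 22.9 and 31.8 in SI females. Here 6 of 8 SI females lay above every GH female and 3 of 7 GH females below every SI female. Its Log2FC was 0.41 (standard error 0.123, edgeR adjusted p = 0.0678), the highest Log2FC among the channel genes in females, and its adjusted p ranged from 0.0191 to 0.131 over the alternatives that kept all females, 3 of 12 of which called it.

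Beta4 is abundant in the striatum, and markers of neighbouring tissue were read beside it. SI female 41 had the highest Scn4b level and also the highest sums of the 6 striatal and of the 6 thalamic markers, 189 and 246 CPM, against at most 162 and 177 CPM in any other female. No marker of either list was at 0 in any group and none of the 12 was called. Without SI 41 the Log2FC of Scn4b was 0.33 (edgeR adjusted p = 0.0683). The part of these tissues in the other mice was not tested.

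Scn3b, for beta3, had 106, 144 and 160 CPM in GH females and 131, 153 and 184 in SI females, with 3 SI females above the GH range and the lowest value in GH animal 78. Its Log2FC was 0.17 (standard error 0.0601, edgeR adjusted p = 0.124). Scn2b, for beta2, stood at 0.07, with 209, 241 and 269 CPM in GH females and 223, 246 and 302 in SI females and 1 SI female above the GH range.

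None of the calcium channel pores was called in females. Cacna1d, the Cav1.3 pore that opens at lower voltages than its L-type relative Cacna1c, had a Log2FC of 0.13 (standard error 0.053, edgeR adjusted p = 0.19), with 19.8, 26.2 and 30.9 CPM in GH and 23.4, 27.5 and 33.7 in SI. Cacna1c was at 0.02, with 46.6, 71.1 and 81.1 CPM in GH females and 52.3, 59.6 and 95.0 in SI females. All 3 Cav2 genes, which feed transmitter release, lay above 0, from 0.04 for Cacna1b to 0.11 for Cacna1e, and none had an unadjusted p under 0.05. Cacna1a had 106, 130 and 142 CPM in GH females and 108, 123 and 187 in SI females, and its Log2FC was 0.05. The 3 Cav3 genes lay between -0.07 and 0.08. Cacna1h had 86.6, 107 and 121 CPM in GH females and 78.4, 112 and 159 in SI females, where the SI range enclosed the GH range.

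Auxiliary calcium channel genes lay on both sides of 0. Cacna2d3, for an alpha2delta subunit, had 54.5, 63.03 and 68.3 CPM in GH females and 58.5, 70.9 and 92.7 in SI females, with 5 of 8 SI females above every GH female. Its Log2FC was 0.16 (standard error 0.0506, edgeR adjusted p = 0.0757), and 2 of the 12 alternatives that kept all females called it. The other 3 alpha2delta genes were at 0.08 for Cacna2d1, 0.04 for Cacna2d2 and -0.22 for the scarce Cacna2d4.

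Cacnb3, the beta subunit gene with the highest level, had 240, 283 and 325 CPM in GH females and 226, 248 and 303 in SI females. Its Log2FC was -0.13 (standard error 0.0503, edgeR adjusted p = 0.165), with 2 SI females below and 2 GH females above the range of the other group. Cacnb1, Cacnb2 and Cacnb4 lay between -0.02 and 0.08.

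Among the gamma genes Cacng7, a type II TARP, was the only one with an unadjusted p under 0.05 in females. It had 205, 229 and 263 CPM in GH females and 170, 200 and 230 in SI females. In this gene 5 of 8 SI females lay below every GH female and 3 of 7 GH females above every SI female. The Log2FC was -0.15 (standard error 0.0494, edgeR adjusted p = 0.0969), and 2 of the 12 alternatives called it. Its type II relative Cacng5 was at 0.17 with a standard error of 0.106. The type I TARPs, which include stargazin (Cacng2), lay between -0.08 and 0.07, and Cacng8 was at 0.04 with 105, 135 and 167 CPM in GH females and 109, 137 and 216 in SI females. Cacng3 had 47.4, 56.0 and 64.8 CPM in GH females and 53.1, 58.2 and 71.9 in SI females.

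**Figure D2:**
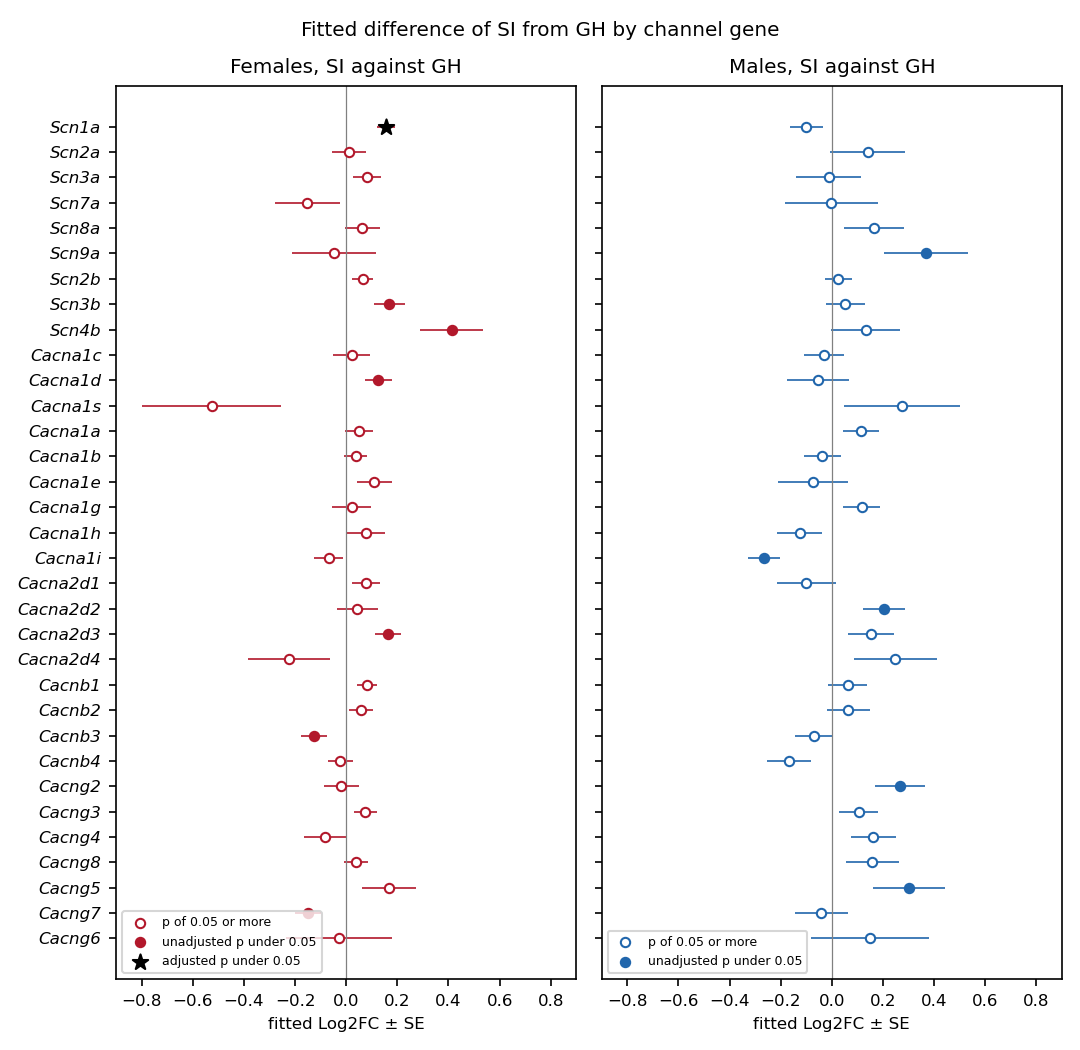
Fitted Log2FC of SI against GH with its standard error for 33 of the 35 channel genes tested in females (left) and males (right), ordered by family from Nav alpha at the top to gamma at the bottom. The star is Scn1a in females, the only gene with an adjusted p under 0.05, filled circles have an unadjusted p under 0.05, and most genes in both panels lie within 0.2 of 0.

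Single females accounted for many of the extremes. SI animal 45 had the highest level among females for 18 of the 35 channel genes, and these genes made up 0.44% of its counts. GH animal 78 had the lowest level for 19 of the 35, and they made up 0.302% of its counts. Animal 45 also had the highest slope of level on transcript length of any female, 0.111 log2 units per doubling, and animal 78 one of the lowest, -0.146. The channel genes are long, with a median transcript of 6251 bases, and 29 of the 35 exceeded the median of 3089.5 bases over the genes tested in females. Spearman's rho of Log2FC with length over 15310 genes was -0.025 in females, and removing the length and GC trend from each library gave 4 channel genes called, Scn1a, Scn4b and Cacna1d higher and Cacng7 lower, of 1210 genes called. Genes are not independent replicates, so rho is a description.

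In males 0 of 35 channel genes were called, nor was any of 15833 genes (0% higher and 0% lower) by the same edgeR test. At an unadjusted p under 0.05 there were 4 channel genes higher and 1 lower, together 14.3%, against 5.63% and 7.38% of all genes. By DESeq2 with the same surrogate variables 1 channel gene, Cacna1i, was called lower, where 0.278% of all genes were called in either direction, and by limma-voom 0. Without SI animal 27 edgeR called 3, among them Cacng2 higher and Cacna1i lower, where 15.3% of all genes were called. The Log2FC was above 0 for 22 of 35 (62.9%), against 49.3% of all genes. The median of the 35 was 0.10 where all genes had -0.002. This median depended on the model and the mice. It was -0.14 without surrogate variables, 0.01 without SI animals 25, 33 and 39, and -0.001 without SI animal 7.

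Cacna1i (ENSMUSG00000022416, chr15:80117668-80228709, plus strand) encodes Cav3.3, the T-type pore with the slowest kinetics, which supports burst firing. It had 80.8, 89.5 and 108 CPM in GH males and 35.1, 70.8 and 102 in SI males, and 5 of 7 SI males lay below every GH male. Animals 25, 33 and 39 had 35.3, 35.1 and 39.2 CPM, and the other 4 SI males 70.8 to 102 CPM. Means were 64.2 ± 27.8 CPM (SD, n = 7) in SI and 90.8 ± 9.84 (SD, n = 8) in GH. The Log2FC was -0.26 (standard error 0.062, unadjusted p = 0.000517 and adjusted p = 0.295, edgeR). Without the 3 mice it was -0.16 with a standard error of 0.0476 (edgeR adjusted p = 0.656), the smallest unadjusted p among the channel genes in that fit, 0.0053. In females the gene had 76.3, 90.4 and 103 CPM in GH and 75.0, 78.3 and 97.5 in SI, with a Log2FC of -0.07 and a standard error of 0.0558. Without surrogate variables the difference in males was larger, at -0.50 (edgeR adjusted p = 0.15).

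Cacng2 (ENSMUSG00000019146, chr15:77822178-77950458, minus strand) encodes stargazin, the TARP that first linked these proteins to AMPA receptors. It had 95.6, 103 and 124 CPM in GH males and 106, 164 and 267 in SI males, with 4 SI males above every GH male. The highest values were those of animals 25 (267 CPM), 33 (240 CPM) and 39 (176 CPM), followed by animal 38 (164 CPM). The Log2FC was 0.27 (standard error 0.0985, edgeR adjusted p = 0.33). Without the 3 mice it was 0.05 with a standard error of 0.0504 (edgeR adjusted p = 0.94), and without SI 38 alone 0.04. Without surrogate variables it was 0.66 (edgeR adjusted p = 0.134). In females the gene had 93.9, 104 and 113 CPM in GH and 85.2, 101 and 126 in SI, where the SI range enclosed the GH range. Its type I relative Cacng4 had its 3 highest values in the same mice, with 27.3, 29.5 and 36.2 CPM in GH males and 29.1, 39.2 and 69.7 in SI males, and its Log2FC was 0.16 with them and 0.03 without. Cacng3 and Cacng8, also type I, had their 3 lowest values there.

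The other 3 genes with an unadjusted p under 0.05 in males had fitted and raw differences of unequal size. Cacna2d2, for an alpha2delta subunit, had 22.8, 25.4 and 34.6 CPM in GH males and 15.3, 25.9 and 35.8 in SI males, where animals 25, 33 and 39 were the 3 lowest. The fit put its Log2FC at 0.20 with a standard error of 0.0815 (edgeR adjusted p = 0.342), yet -0.07 without surrogate variables and 0.06 without the 3 mice. Cacng5, a type II TARP, had 5.84, 7.29 and 12.7 CPM in GH males and 5.19, 8.59 and 11.4 in SI males. Its Log2FC was 0.30 (standard error 0.142, edgeR adjusted p = 0.383), at -0.02 without surrogate variables and 0.19 without the 3 mice. Scn9a, the Nav1.7 pore of pain-sensing neurons, was close to the floor with 0.792, 1.48 and 2.08 CPM in GH males and 1.57, 1.68 and 2.78 in SI males. Its Log2FC was 0.37 (standard error 0.166, edgeR adjusted p = 0.371) and 0.30 without the 3 mice.

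Cacng5 has its known peak in the CA2 field, and the CA2 markers were read beside it. The sum of the 4 CA2 markers was 236 to 460 CPM in SI males and 227 to 306 in GH males, and animals 25, 33 and 39 had the 3 highest sums, 404 to 460 CPM, while their Cacng5 levels were 5.65, 5.19 and 8.59 CPM. The markers of this sum differed unequally. Pcp4 had a mean of 222.7 CPM in SI males and 134.2 in GH males. Rgs14 had 100.4 and 100.1, Amigo2 16.8 and 16.79, and Map3k15 1.098 and 1.418. The part of CA2 tissue in the difference was not tested.

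Scn1a was not higher in SI males. It had 58.2, 69.3 and 80.4 CPM in GH males and 29.7, 59.2 and 84.2 in SI males, and animals 25, 33 and 39 held the 3 lowest values at 29.7, 29.7 and 35.9 CPM. The Log2FC was -0.10 (standard error 0.0648, edgeR adjusted p = 0.5), and 0.00 without the 3 mice. Scn4b had 13.5, 18.1 and 20.6 CPM in GH males and 10.02, 13.6 and 27.3 in SI males, with a Log2FC of 0.13 (standard error 0.135), and 0.05 without the 3 mice. The highest value was that of SI animal 38, which also had the highest striatal and thalamic sums among males, 152 and 227 CPM. All 6 thalamic markers had a Log2FC above 0 in males, 4 of them at an unadjusted p under 0.05, and none was called. Of all genes tested in males 49.3% lay above 0 and 5.63% were higher at that p. Without the 3 mice all 6 thalamic markers were again above 0, 3 of them at an unadjusted p under 0.05. In that fit 7748 of 16241 genes lay above 0 and 473 were higher at that p. Scn2b had 218, 251 and 292 CPM in GH males and 128, 242 and 296 in SI males, with animals 25, 33 and 39 the 3 lowest, and its Log2FC was 0.03 (standard error 0.0531), and -0.005 without the 3 mice.

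**Figure D3:**
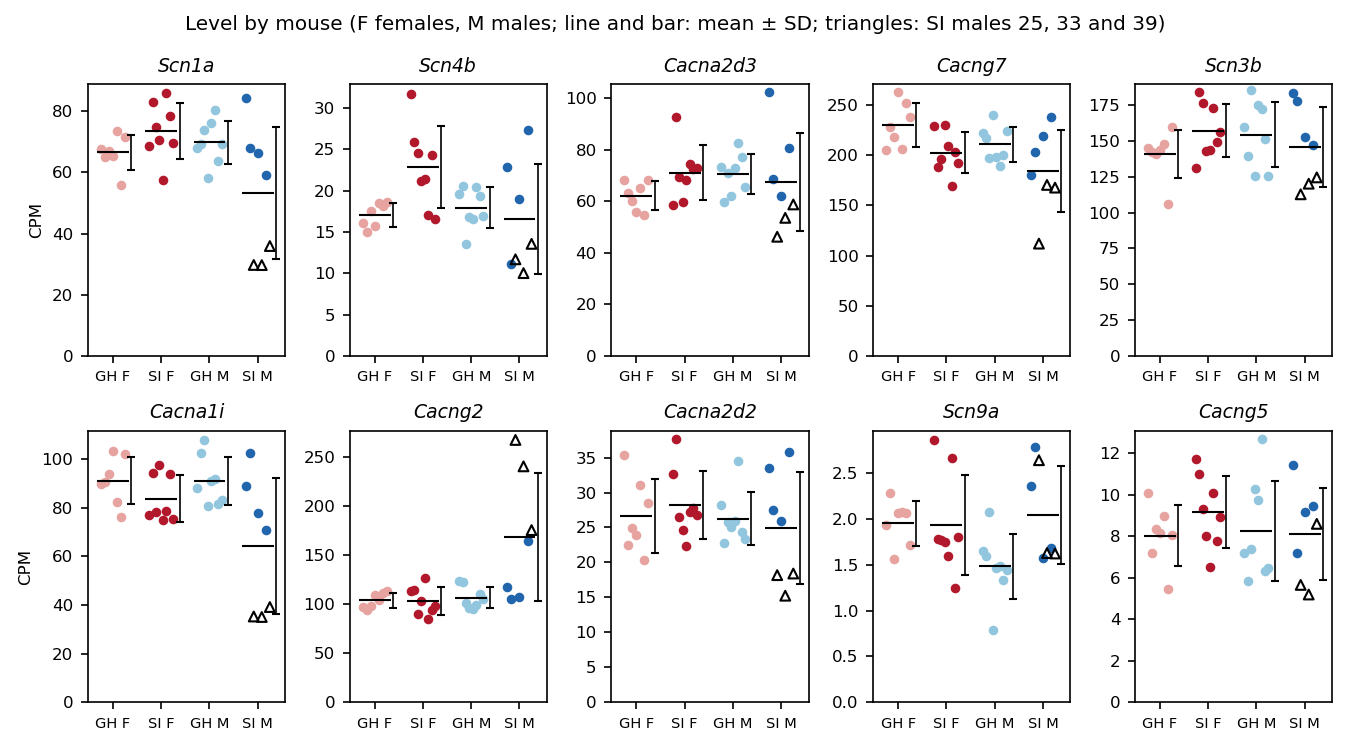
CPM of each mouse of all 4 groups for the 5 channel genes with the smallest unadjusted p in females (top) and the 5 in males (bottom), with the mean and a bar of 1 SD for each group. Triangles are SI males 25, 33 and 39, which have the lowest values for Scn1a (29.7 to 35.9 CPM) and Cacna1i (35.1 to 39.2 CPM) and the highest for Cacng2 (176 to 267 CPM), while 6 of 8 SI females lie above every GH female for Scn4b.

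The families behaved unevenly in males. All 3 Cav2 and all 3 Cav3 genes had their 3 lowest values in animals 25, 33 and 39, as did Cacna1c. Of the 7 Nav alpha genes only Scn1a did. In the fit with surrogate variables, Cav2 genes were at -0.07 to 0.11 and Cav3 genes at -0.26 to 0.12. The 4 type I TARPs were at 0.10 to 0.27 and the 4 Nav beta genes at 0.03 to 0.13, all above 0. Without the 3 mice both families lost that common sign, with Cacng3 and Cacng8 at -0.06 each and Scn2b at -0.005. Cacna1a had 130, 136 and 163 CPM in GH males and 77.6, 126 and 174 in SI males, with 4 SI males below and 3 above the GH range. Cacna1h had 91.0, 113 and 129 CPM in GH males and 32.1, 95.0 and 145 in SI males, and Cacna1c 57.3, 69.9 and 101 in GH against 26.5, 60.7 and 100 in SI. Without the 3 mice the Log2FC was 0.02 for Cacna1a, -0.06 for Cacna1h and 0.02 for Cacna1c.

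Cacna2d3 had 59.8, 71.9 and 82.7 CPM in GH males and 46.2, 61.8 and 102 in SI males, with a Log2FC of 0.15 (standard error 0.0897), and 0.01 without the 3 mice. Cacng7 had 189, 209 and 240 CPM in GH males and 112, 180 and 238 in SI males, with 4 of 7 SI males below every GH male, and its Log2FC was -0.04 (standard error 0.102), and 0.003 without the 3 mice. Scn3b had 126, 156 and 185 CPM in GH males and 113, 147 and 184 in SI males, and its Log2FC was 0.05, and 0.01 without the 3 mice. Scn2a had 169, 199 and 262 CPM in GH males and 184, 215 and 353 in SI males, and 3 SI males lay above every GH male, among them animals 25 (353 CPM) and 33 (292 CPM). Its Log2FC was 0.14 (standard error 0.145), and 0.003 without the 3 mice.

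Without animals 25, 33 and 39, 0 of 35 channel genes were called in males by edgeR, where 1 of 16241 genes was. At an unadjusted p under 0.05 there were 0 channel genes higher and 3 lower, where 473 of the 16241 genes were higher and 548 lower. The 3 channel genes were Cacna1i, Cacnb3 at -0.12 (standard error 0.0424) and Cacnb1 at -0.11 (standard error 0.0429). With all males Cacnb1 was on the other side of 0, at 0.06 (standard error 0.0753). The Log2FC kept its direction for 24 of 35 genes and lay closer to 0 for 29 of 35. This fit held 4 surrogate variables and the fit of all males 2, so the mice and the model changed together. With 4 surrogate variables and all males the median Log2FC of the channel genes was 0.05. Cacnb3 had 238, 288 and 313 CPM in GH males and 243, 268 and 317 in SI males. Its fitted Log2FC was thus below 0 in females (-0.13), in all males (-0.07) and in the males without the 3 mice.

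**Figure D4:**
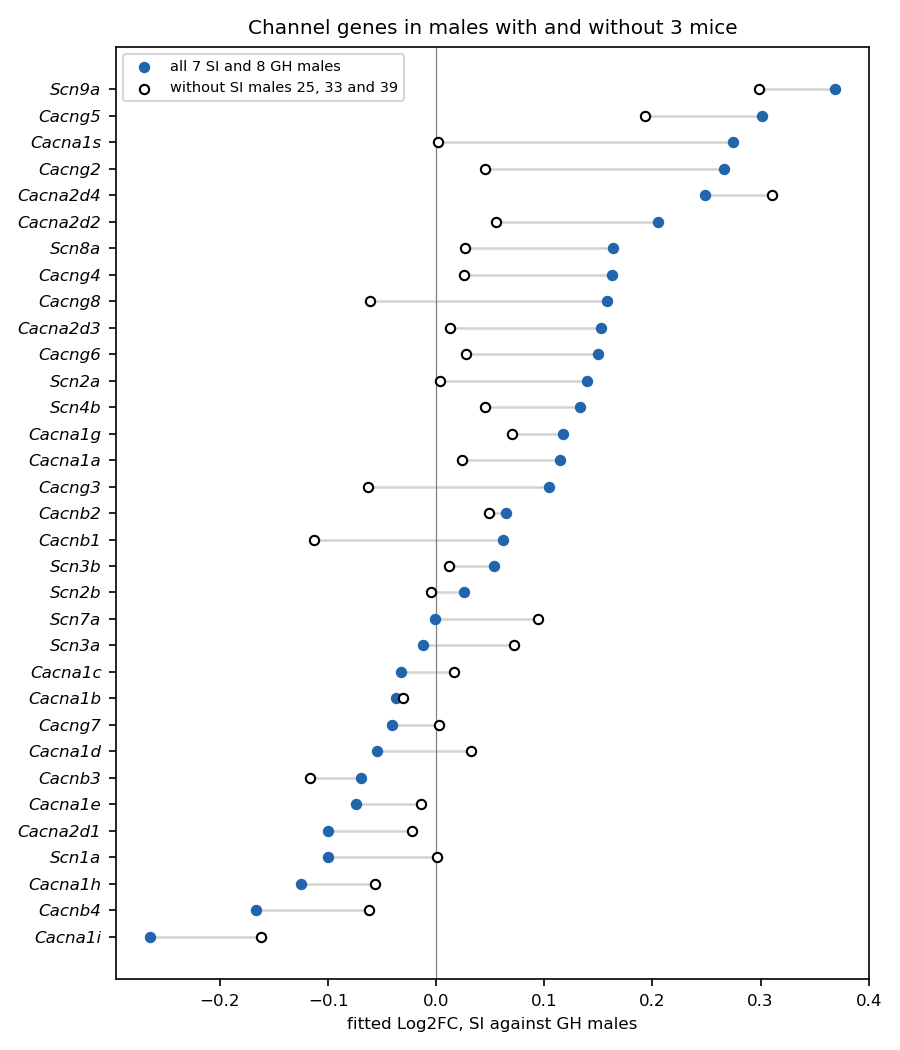
Fitted Log2FC of SI against GH males for 33 of the 35 channel genes with all 15 males (filled) and without SI animals 25, 33 and 39 (open), ordered by the value with all males. For 28 of the 33 genes the open circle lies closer to 0, and Cacna1i is lowest in both, at -0.26 and -0.16.

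The trend with transcript length was larger in males. Spearman's rho of Log2FC with length over 15137 genes was -0.282, and the median Log2FC of the 1593 genes at least as long as the median channel gene was -0.09, against -0.01 for such genes in females. The channel genes, with a median of 0.10 in males, lay on the other side of 0 from these long genes in this fit, though many channel genes are shorter. The median of the channel genes was -0.14 without surrogate variables, -0.01 by limma-voom and 0.01 without the 3 mice. The part of length in single channel genes was not tested beyond the removal of the trend. That removal gave 0 calls, where 0 of 14863 genes were called, and a median of 0.10, where all genes had 0.002.

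**Figure D5:**
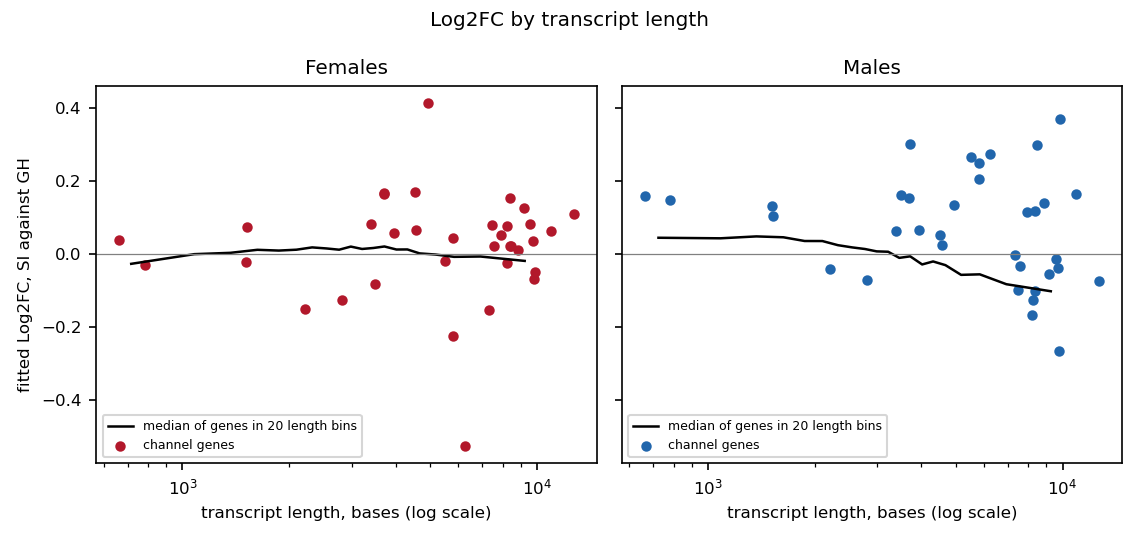
Fitted Log2FC of the 35 channel genes against transcript length on a log scale in females (left) and males (right), with a line through the median Log2FC of all genes in 20 bins of length. The line is near 0 in females and falls in males from 0.04 in the shortest bin to -0.10 in the longest, while the channel genes lie on both sides of it.

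Whether the response to housing differed between the sexes was tested by an interaction term, fitted to the 30 mice together with 4 surrogate variables. By edgeR 0 of 35 channel genes were called, and 0.00610% of 16391 genes were. At an unadjusted p under 0.05 there were 2 channel genes, against 7.03% of all genes. Scn1a had a Log2FC lower in males than in females by 0.18 (interaction -0.18, standard error 0.0536, unadjusted p = 0.00244 and adjusted p = 0.541, edgeR), and without animals 25, 33 and 39 the interaction was -0.13 (edgeR adjusted p = 0.535). Scn4b had an interaction of -0.38 (unadjusted p = 0.0396 and adjusted p = 0.693, edgeR). DESeq2 called 0 channel genes for the interaction.

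Proteins that bind these channels were followed as 3 lists. Of 15 partners of sodium channels, which hold them at the axon initial segment or change their gating, 1 was called lower in females, where 2.93% of all genes were, and 0 in males. The called gene was Fgf13, an intracellular FGF homologous factor that binds the Nav tail, with 193, 221 and 231 CPM in GH females and 180, 188 and 208 in SI females and a Log2FC of -0.16 (standard error 0.0373, edgeR adjusted p = 0.0267). The list's median Log2FC was -0.05 in females and -0.03 in males, and -0.01 in males without the 3 mice. Fgf11 (-0.08) and Calm2 (0.09) also had an unadjusted p under 0.05 in females.

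The 20 calcium channel partners included proteins of release sites, regulators such as Stac, Rem2 and Cabp1, and the related leak channel Nalcn with Unc79 and Unc80. In females 2 were called lower and 0 higher, where 2.93% and 0.961% of all genes were. Rims1, which tethers Cav2 channels in the active zone, had 212, 246 and 268 CPM in GH females and 159, 192 and 235 in SI females, with a Log2FC of -0.27 (standard error 0.0682, edgeR adjusted p = 0.0386). Ahnak, a giant protein that binds calcium channel beta subunits, was at -0.22 (standard error 0.0466, edgeR adjusted p = 0.0185). At an unadjusted p under 0.05 there were 2 higher and 5 lower in females and 5 lower in males, Rims1 among them at -0.46 (edgeR adjusted p = 0.295), and at -0.13 without animals 25, 33 and 39. The list's median was -0.01 in females and -0.12 in males, where 16 of 20 and 50.7% of all genes lay below 0. Without the 3 mice the median was -0.07 and 18 of 20 lay below 0, against 52.3% of all genes.

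Of 11 AMPA receptor subunits and partners of the TARPs, only Dlg4 was called in females, lower, where 2.93% of all genes were. None was called in males, where 0% of all genes were. Dlg4 encodes PSD-95, the scaffold that anchors TARPs at the synapse, and had 1001, 1119 and 1306 CPM in GH females and 900, 965 and 1043 in SI females, a Log2FC of -0.18 (standard error 0.0417, edgeR adjusted p = 0.0242). Gria2 (0.15) and Shisa7 (0.12) in females and Gria4 (-0.20, and -0.05 without the 3 mice) in males also had an unadjusted p under 0.05. The list's median Log2FC was 0.05 in females, -0.02 in males and -0.04 in males without the 3 mice.

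Some cell markers differed with housing in females too. Over all genes tested in females 7562 of 16026 lay below 0, 2.93% were called lower and 0.961% higher. All 5 astrocyte markers had a Log2FC below 0 in females, 2 of them called (Slc1a3 at -0.24 and Aldh1l1 at -0.27). Their sum was 1394 to 1963 CPM in SI against 1729 to 2239 in GH. Of the 4 neuronal markers Map2 was called lower (-0.28), while Snap25 (0.13), Tubb3 (0.08) and Rbfox3 (0.05) lay above 0 and were not called, with the neuronal sum at 3074 to 3324 CPM in SI and 3084 to 3590 in GH, and the endothelial marker Flt1 was called higher (0.14, edgeR adjusted p = 0.0496). The 6 interneuron markers, which mark cells rich in Scn1a, summed to 662 to 806 CPM in SI females and 583 to 772 in GH females, and 0 of them were called. In males the interneuron sum was 694 to 922 CPM in SI and 660 to 800.0 in GH, highest in animal 25. In mean CPM its markers went both ways. Mean CPM in SI and GH males was 349.3 and 262.5 for Sst, 75.4 and 41.7 for Pvalb and 16.9 and 14.9 for Vip. It was lower in SI for Gad1 (214 and 227), Gad2 (78.7 and 90.6) and Slc32a1 (90.3 and 92.6). Choroid plexus markers summed to between 39.5 and 4931 CPM over all mice. The part of these cells in the channel genes' values was not tested.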

How the data were processed

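Hippocampal RNA of 30 mice was sequenced as paired ends, 1 library a mouse. The authors trimmed reads with Trimmomatic 0.39, quantified them with Salmon 1.8.0 and deposited whole-number counts per Ensembl gene and mouse, not normalized. The submitters' processing notes name GRCm39, and the annotation release is not given in the sources used here. All 30 columns matched a mouse by name. The table's genes each have at least 100 counts in total. Symbols matched 16439 IDs (94.1%). Lengths, coordinates and shared 31-base words are those of GENCODE vM1 on NCBIM37 for the same IDs, another build than the authors', with length and GC content for 15964 IDs (91.3%).

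In females and males separately, filterByExpr removed low genes (at a minimum count of 10 and total of 15), and the rest were scaled with TMM and tested with glmQLFit and glmQLFTest of edgeR 4.0.16 in R 4.3.3 for SI against GH, Benjamini-Hochberg adjusted over all genes at 0.05. Surrogate variables came from svaseq of sva 3.50.0 (20 permutations, seed 1): 3 in females, 2 in males and 4 in the interaction fit. Their number was estimated anew for the males without animals 25, 33 and 39, where it was 4. The authors used DESeq2 with svaseq. CPM in the text is not adjusted for surrogate variables, whereas Log2FC is, so their ratios can differ. Alternatives were DESeq2 1.42.0, limma-voom (limma 3.58.1) with quality weights, other numbers of surrogate variables, the position digit of the labels, other size factors and filters, all groups in 1 fit, lowess removal (span 0.3) of length and GC trends, and each mouse left out. Steps were tested on simulated data.

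The channel genes, the partner and marker lists and the tests were chosen with earlier results of these data known. Values are given for channel genes called in either sex, the 5 with the smallest p in each sex and the highest per length of each family, and for partners called or at an unadjusted p under 0.05, up to 3 a list. Some items are not reported here. Values of Cacna1d, Cacng4 and Scn2b were added after their values were seen. Depth was 18809307 to 100844898 counts a mouse, and 98 pairs of replicates differed by more than sampling noise (chi-square per degree of freedom of at least 9.29), so the spread between mice sets the precision. Each mouse has its own number, so there is no pairing by animal. Cage and litter are not in the labels and were not modelled.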

Additional observations from a re-analysis of the deposited data

Results flagged for a closer look

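Over 80 sets of values (20 channel genes in 4 groups), 5 held a mouse far from the rest of its group by Dixon's ratio, where chance flags about 1 in 20 groups. SI female 45 had 187.1 CPM of Cacna1a, with 144.8 CPM in the next SI female. The same mouse had 92.7 CPM of Cacna2d3, next to 74.3, and 216.1 CPM of Cacng8, next to 157.5. GH female 78 had 105.6 CPM of Scn3b, with 140.7 CPM in the next GH female. GH male 22 had 34.57 CPM of Cacna2d2, with 28.3 CPM in the next GH male.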

How the results depend on the processing

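The count of channel genes called in females was 1 by edgeR (3.89% of all genes), 3 by DESeq2 (7.87%) and with 4 surrogate variables (6.76%), and 4 with the length and GC trend removed (8.05%). It was 0 without surrogate variables and with the position digit as a factor, where 0% of all genes were called. It was also 0 with 2 surrogate variables (3.43% of all genes), by limma-voom (5.23%) and with no filter (3.92%). With 1 surrogate variable (3.3%) the gene called was Scn4b instead of Scn1a. Leaving out each female in turn gave 0 to 4, the most without SI 52 (6.64% of all genes). There were 2 without GH 46 (8.55%), SI 41 (5.16%) or SI 73 (1.82%). There were 0 without GH 48, GH 54, SI 45, SI 63 or SI 68, where 0.55% to 2.87% of all genes were called. In males DESeq2 called 1, and leaving out each male in turn gave 0 to 3, the 3 without SI 27, among them Cacng2 higher and Cacna1i lower, where 2414 genes were called. The median Log2FC of the channel genes was between -0.002 and 0.08 with each female left out and between -0.001 and 0.13 with each male left out. In males it was also below 0 without surrogate variables (-0.14), with the position digit (-0.14) and by limma-voom (-0.01). In males Cacna2d2 reversed to -0.0729 without surrogate variables and -0.1211 with the position digit, and Cacng5 to -0.0184 and -0.0044. The cause was not tested. The count for the interaction was 0 in each of 4 alternatives. Scn1a in females, Cacna1i, Cacng2 and Scn9a in males kept their direction in all 12 alternatives that kept every mouse. Genes at about 2 CPM or less, such as Scn9a and Scn7a, have standard errors over 0.12. The animals carry numbers of their own and no number is shared between groups, so no analysis paired by animal was possible.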
